A study of Mus musculus with 34 samples.

Results

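PU.1, CEBPa and PPARg were mapped by chromatin immunoprecipitation and sequencing (ChIP-seq) in resting thioglycollate-elicited macrophages (TGEMs), and the 3 deposited peak lists were compared locus by locus. These are 3 of the 34 samples of the series, chosen by antibody, mouse strain and treatment, and each sample gave 1 list of peaks. TGEMs are primary macrophages recruited to the peritoneum of the mouse by an injected irritant. All 3 samples came from male mice that the labels give as C57Bl/6EiJ and the methods as C57Bl/6J, aged 8 weeks, without an engineered allele. The cells were collected 3 days after injection and, 1 day after plating, treated for 1 h with PBS, the vehicle (Veh). The labels name 1 antibody each for PU.1 and CEBPa but 3 for PPARg, without saying how the latter were combined. The study asked which factors go with the binding of members of the AP-1 family, and the Veh peaks of the AP-1 monomers ATF3, Jun and JunD from the same strain were set beside them here. Also used were PU.1 and CEBPa lists of the same strain after 1 h of KLA, an agonist of TLR4, and Veh lists of ATF3, Jun and JunD from male mice labelled C57Bl6-PPARgKO, for which the labels do not describe the allele.

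PU.1 is an ETS-family factor that macrophages need for their development and that marks and opens many of their enhancers. CEBPa is a basic leucine zipper factor that acts with PU.1 in the granulocyte and monocyte lineage. PPARg is a nuclear receptor that binds DNA with RXR, usually at a pair of half-sites 1 base apart (a DR1), and controls genes of lipid uptake and storage. AP-1 monomers bind as dimers, and their best known site is TGACTCA.

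The PU.1 list held 41573 peaks, the PPARg list 31089 and the CEBPa list 12892. A peak's count is the deposited number of ChIP-seq tags in it. Counts ran from 110 to 1563 in the PU.1 list, with a median of 259. They ran from 30 to 463 in the CEBPa list, with a median of 76, and from 12 to 565 in the PPARg list, with a median of 36. The weakest listed PU.1 peak therefore had more tags than the median peak of either other list, so counts were compared only by rank within a list. Replicate libraries had been joined into 1 list per factor, so no test across replicates was possible. The intervals given below are 95% Wilson intervals, which cover counting error over loci and not the spread between mice or experiments. Library depth is unknown from these lists.

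Peaks that shared at least 1 bp were merged, which gave 60069 loci in 7 classes. As an example of each class, the central 100 bases of its strongest locus follow, which need not be typical. Strength is the mean percentile of the counts of the factors present. Loci on unplaced scaffolds, in a UTR or on a chromosome not printed here were passed over, which skipped the strongest locus of the PU.1 only, PPARg only and CEBPa + PPARg classes. Sequences are from the GRCm38 (mm10) plus strand, and capitals mark a PU.1 motif (AGGAAGT), a CEBP motif (TTGCNNAA), an AP-1 motif (TGACTCA) or a DR1 (AGGTCA, any base, AGGTCA, with up to 2 mismatches) on either strand. The PU.1 only locus (chr2:60288789-60288888) lay 4351 bp upstream of Cd302, a C-type lectin receptor gene. The CEBPa only locus (chr8:69091162-69091261) lay 1977 bp upstream of the start of Slc18a1, a vesicular amine transporter gene, within an intron of Atp6v1b2. The PPARg only locus (chr17:39843282-39843381) lay inside Gm26917, annotated as a lincRNA, and 107188 bp upstream of Esp38. Loci ranked 2, 3 and 4 of this class all lay there (549, 548 and 478 tags), with a GC content of 60.5%, 71% and 67.5%. The class median was 51.5%, and whether reads pile up there for technical reasons was not tested. The PU.1 + CEBPa locus (chr1:166339248-166339347) lay 39799 bp upstream of Tada1, which encodes a subunit of a histone acetyltransferase complex. The PU.1 + PPARg locus (chr19:34515819-34515918) lay in an intron of Lipa, the lysosomal acid lipase gene. The CEBPa + PPARg locus (chr12:8829856-8829955) lay 58583 bp downstream of the start of Sdc1, the syndecan gene, outside annotated genes. The locus of all 3 factors (chr11:85003699-85003798) lay in an intron of Usp32, and the nearest gene start was that of Car4, a carbonic anhydrase gene, 45963 bp away.
PU.1 only, Cd302: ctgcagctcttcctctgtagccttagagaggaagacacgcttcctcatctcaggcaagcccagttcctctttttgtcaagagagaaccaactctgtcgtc
CEBPa only, Slc18a1: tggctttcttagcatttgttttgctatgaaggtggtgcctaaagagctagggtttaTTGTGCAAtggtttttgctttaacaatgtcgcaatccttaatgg
PPARg only, Gm26917: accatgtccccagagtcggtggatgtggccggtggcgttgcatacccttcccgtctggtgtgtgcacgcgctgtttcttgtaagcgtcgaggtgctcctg
PU.1 + CEBPa, Tada1: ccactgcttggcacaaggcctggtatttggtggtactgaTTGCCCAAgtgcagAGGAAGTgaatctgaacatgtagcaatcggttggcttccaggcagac
PU.1 + PPARg, Lipa: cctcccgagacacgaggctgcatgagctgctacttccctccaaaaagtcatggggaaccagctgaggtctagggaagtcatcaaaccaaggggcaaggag
CEBPa + PPARg, Sdc1: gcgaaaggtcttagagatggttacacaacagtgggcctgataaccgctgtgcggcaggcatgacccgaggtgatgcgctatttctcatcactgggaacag
PU.1 + CEBPa + PPARg, Car4: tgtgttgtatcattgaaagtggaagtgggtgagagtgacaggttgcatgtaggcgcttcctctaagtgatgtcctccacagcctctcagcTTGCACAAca

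Among these 7, the Slc18a1 and Tada1 loci held the motif of each of their factors in the bases shown, and the Tada1 locus had a CEBP and a PU.1 motif near one another. The Car4 locus held a CEBP motif only, and the other 4 held none. For comparison, 3 further loci were picked because they held the motifs of all their factors, so they carry no weight as evidence. The PU.1 only locus (chr11:71159622-71159721) was nearest to the start of Nlrp1a, an inflammasome gene, and had 2 PU.1 motifs. The PPARg only locus (chr9:55512259-55512358) lay 66 bp upstream of Etfa, an electron transfer flavoprotein gene of fatty acid oxidation, and had 1 DR1. The locus of all 3 factors (chr13:5875654-5875753) lay 14222 bp downstream of the start of Klf6, a zinc finger factor gene, and was only the 181st strongest of its class.
PU.1 only, Nlrp1a: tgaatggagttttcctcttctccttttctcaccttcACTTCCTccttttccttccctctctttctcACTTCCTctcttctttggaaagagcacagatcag
PPARg only, Etfa: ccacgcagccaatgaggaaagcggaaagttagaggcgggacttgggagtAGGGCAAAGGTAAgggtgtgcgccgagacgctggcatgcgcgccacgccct
PU.1 + CEBPa + PPARg, Klf6: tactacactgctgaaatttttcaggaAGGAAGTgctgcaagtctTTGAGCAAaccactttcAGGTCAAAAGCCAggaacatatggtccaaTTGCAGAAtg

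Most loci carried 1 factor. Of the 60069 loci, 39598 (65.9%, interval 65.5 to 66.3) had a peak of a single factor, 15566 (25.9%) of a pair and 4905 (8.17%, interval 7.95 to 8.39) of all 3. PU.1 only loci were the largest class with 23447 (39.0%), followed by PPARg only with 12688 (21.1%) and PU.1 + PPARg with 11062 (18.4%). The classes with CEBPa but not both others were small, at 3463 loci for CEBPa only (5.77%), 2432 for CEBPa + PPARg (4.05%) and 2072 for PU.1 + CEBPa (3.45%).

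The order of the classes moved with list length. When each list was cut to its 12892 strongest peaks, 28481 loci remained and the single-factor classes became alike in size, at 25.8% for PU.1 only, 24.2% for CEBPa only and 20.8% for PPARg only. CEBPa + PPARg then made up 9.83% of loci and PU.1 + PPARg 8.19%, the reverse of their order in the whole lists. Loci of all 3 factors made up 6.49% (interval 6.21 to 6.78), or 1848 loci. Peaks below the cut are left out at equal length, so a locus can have a further factor's peak in the whole lists.

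**Figure D1:**
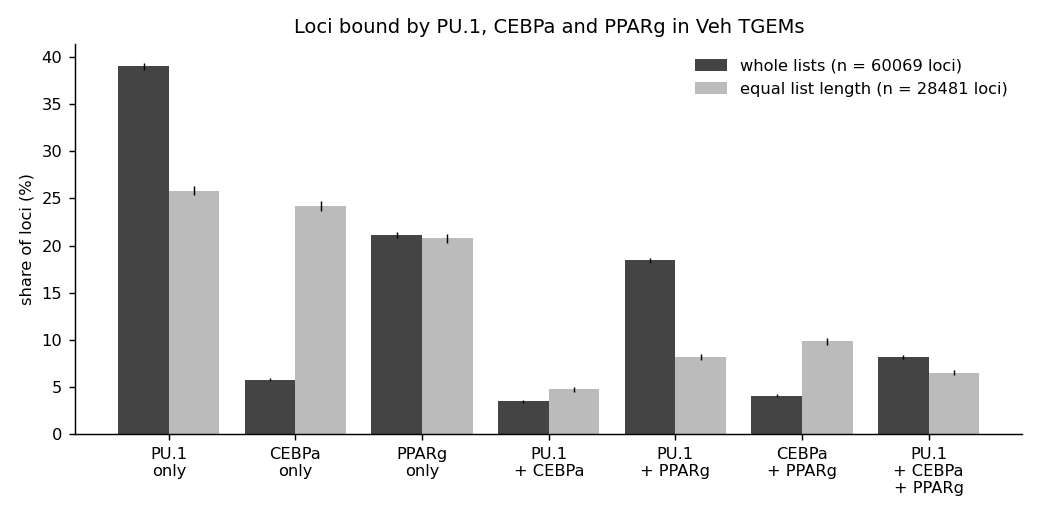
Share of loci (%) in each of the 7 overlap classes, for the whole lists (60069 loci) and for lists cut to 12892 peaks each (28481 loci); error bars are 95% Wilson intervals. PU.1 only falls from 39.0% to 25.8% and CEBPa only rises from 5.77% to 24.2% when the lists are of equal length.

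Which factor's peaks were most often shared depended on list length. In the whole lists, 53.4% of CEBPa peaks overlapped a PU.1 peak, 56.7% overlapped a PPARg peak and 26.9% overlapped neither. Of the PPARg peaks, 51.3% overlapped a PU.1 peak and 23.5% a CEBPa peak, while 40.8% overlapped neither. Of the PU.1 peaks, 56.4% stood alone, with 38.5% on a PPARg peak and 16.6% on a CEBPa peak. Of 12892 peaks each at equal length, 7354 of PU.1, 6886 of CEBPa (53.4%) and 5912 of PPARg (45.9%) overlapped neither, so that CEBPa peaks were most often shared in the whole lists and PPARg peaks at equal length. At equal length the closest pair was CEBPa and PPARg, for which 36.0% of CEBPa and 35.9% of PPARg peaks overlapped. The same shares were 32.4% of PU.1 and 32.3% of PPARg peaks for PU.1 and PPARg, and 24.5% of either list for PU.1 and CEBPa. By comparison, 0.697% of 52950 windows of 200 bp placed every 50000 bp through the genome overlapped a PU.1 peak, 0.612% a PPARg peak and 0.204% a CEBPa peak.

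Where a locus had 1 peak of each of a pair of factors, the peak centres lay close. The median distance was 35 bp for CEBPa and PPARg over 7290 loci, 40 bp for PU.1 and PPARg over 15862 loci and 42 bp for PU.1 and CEBPa over 6928 loci. Centres were within 50 bp at 66.3%, 59.7% and 58.4% of these loci. Merging by overlap limits these distances by the peak widths, with medians of 211 bp for PU.1, 216 bp for CEBPa and 239 bp for PPARg. No expected distance was computed.

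Peaks that were shared had higher counts than peaks that stood alone, in each list. The median count of PU.1 peaks was 228 at PU.1 only loci, 293.5 with CEBPa, 302 with PPARg and 369 with both. The median count of CEBPa peaks was 58 alone, 70 with PU.1, 85 with PPARg and 93 with both. The median count of PPARg peaks was 27 alone, 39 with PU.1, 42 with CEBPa and 58 with both. The distributions overlapped widely, since the interquartile range was 164 to 347 tags for PU.1 only peaks and 218 to 628 for PU.1 peaks with both partners. Peaks at loci of all 3 factors were frequent among the strongest 10% of each list, which held 23.2% of such PU.1 peaks, 16.8% of such CEBPa peaks and 21.8% of such PPARg peaks, against 4.67%, 2.66% and 4.75% of the peaks that stood alone.

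The ranks of the counts were nevertheless only weakly related between factors. Spearman's rho was 0.26 for CEBPa and PPARg over 7337 shared loci, 0.18 for PU.1 and PPARg over 15967 and 0.06 for PU.1 and CEBPa over 6977. At equal list length rho was 0.12 over 4648 loci, 0.07 over 4180 and 0.04 over 3198, in the same order. Loci are not replicates and share local base composition and mappability, so these are descriptions. The AP-1 monomers ranked far more alike among themselves, with rho of 0.73 for ATF3 and Jun, 0.74 for ATF3 and JunD and 0.77 for Jun and JunD. Between the families, PPARg counts followed JunD (0.45), Jun (0.43) and ATF3 (0.37), CEBPa counts followed ATF3 (0.30), Jun (0.26) and JunD (0.25), and PU.1 counts followed JunD (0.17), Jun (0.14) and ATF3 (0.12). CEBPa was thus the factor whose counts ranked highest with ATF3 among the 3 monomers, while PU.1 and PPARg ranked highest with JunD.

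PPARg peaks lay at promoters most often. A promoter was counted where the peak centre lay within 1 kb of the start of a protein-coding gene, a zone that covers 1.52% of the genome. This held for 6898 PPARg peaks (22.2%, interval 21.7 to 22.7), 5821 PU.1 peaks (14.0%, interval 13.7 to 14.3) and 1302 CEBPa peaks (10.1%, interval 9.59 to 10.6). At equal list length the shares were 22.2%, 11.2% and 10.1%. By class, the share was 26.4% for PPARg only and 24.5% for PU.1 + PPARg, 13.9% for CEBPa + PPARg, 10.5% for PU.1 only, 10.1% for all 3 factors, 9.70% for CEBPa only and 6.32% for PU.1 + CEBPa. At equal length PPARg only loci reached 32.7%, PU.1 + PPARg 17.6% and loci of all 3 factors 8.60%. Every class with CEBPa was at 13.9% or less in both settings.

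The promoter share of PPARg peaks did not follow the count in 1 direction. It was 14.9% in the strongest 10% of the list, 29.5% in both the fifth and the sixth bin of 10% and lowest in the weakest, with an interval of 10.9% to 13.2%. The share for PU.1 rose from 9.16% in the strongest 10% to 16.9% in the weakest, and that for CEBPa stayed between 7.36% and 11.2%. The median GC content of the central 200 bp was 51.5% at PPARg only and PU.1 + PPARg loci, 48.0% at loci of all 3 factors, 47.5% at PU.1 only, 45.0% at CEBPa only and PU.1 + CEBPa loci, and 41.5% in the genome windows. The part of base composition in the promoter shares was not tested.

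**Figure D2:**
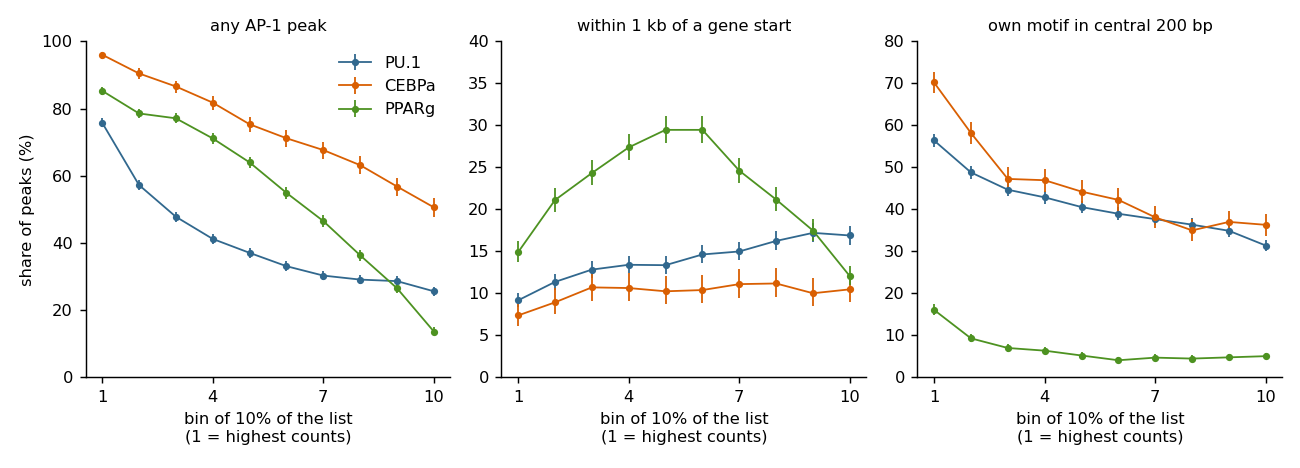
Share of peaks (%) that overlap any AP-1 peak (left), lie within 1 kb of a gene start (middle) or hold the factor's own motif in the central 200 bp (right), for bins of 10% of each list from the highest counts (1) to the lowest (10); error bars are 95% Wilson intervals. AP-1 overlap falls with the count in all 3 lists, while the promoter share of PPARg peaks is highest in the middle bins.

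The motifs were read as a check of the antibody labels. In the central 200 bp, the PU.1 motif was found at 41.2% of PU.1 peaks against 4.61% of genome windows, and at 20.0% of CEBPa and 19.3% of PPARg peaks. The CEBP motif was found at 45.5% of CEBPa peaks against 9.39% of genome windows, and at 12.2% of PU.1 and 14.7% of PPARg peaks. The DR1 was found at 6.68% of PPARg peaks against 2.43% of genome windows, and at 3.08% of PU.1 and 3.12% of CEBPa peaks. The single half-site AGGTCA was found at 18.9% of PPARg peaks, 13.0% of PU.1 peaks, 13.7% of CEBPa peaks and 11.2% of genome windows; each DR1 match may contain a half-site. Each factor's own motif was thus most frequent in its own list, but it was present at a minority of peaks, and the DR1 at few. In the PPARg list the DR1 was less frequent than the PU.1 motif and the AP-1 motif (15.8%, against 3.26% of genome windows). The genome windows were not matched for base composition, with a median GC content of 41.5% against 50.5% for PPARg peaks.

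Own motifs were most frequent among the strongest peaks. From the strongest to the weakest 10% of a list, the share fell from 56.4% to 31.4% for PU.1 and from 70.2% to 36.3% for CEBPa. For PPARg the DR1 share fell from 16.1% in the strongest 10% to 9.28% in the next and 5.03% in the weakest. AGGTCA fell from 32.3% to 16.2% over the same range.

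Motifs separated the classes by the factors present. The PU.1 motif was found at 46.1% of PU.1 only loci, 35.8% of PU.1 + CEBPa, 33.6% of PU.1 + PPARg and 32.0% of loci of all 3 factors, and at 6.25% to 8.75% of the classes without PU.1. The CEBP motif was found at 57.8% of CEBPa only loci, 45.6% of CEBPa + PPARg, 41.2% of PU.1 + CEBPa and 35.2% of loci of all 3 factors. It was at 6.86% to 9.02% of the classes without CEBPa, at or below the 9.39% of genome windows. The DR1 was found at 7.95% of PPARg only loci, 5.79% of PU.1 + PPARg, 5.51% of CEBPa + PPARg and 3.91% of loci of all 3 factors, and at 1.64% to 2.31% of the others. In each case the motif was less frequent the more partners a factor had, which is a difference between non-overlapping intervals for the single-factor class against the class of all 3. The 200 bp window was centred on the merged locus and not on the factor's own peak. Merged loci were wider with more factors, with a median of 299 bp for all 3 and 210 bp for PU.1 only. The part of this in the trend was not tested.

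Among loci of several factors, few held the motifs of all of them. A PU.1 and a CEBP motif were both present at 13.5% of PU.1 + CEBPa loci (279 loci) and at 539 of the 4905 loci of all 3 factors (interval 10.1% to 11.9%), against 0.705% to 5.11% of the remaining classes. The PU.1, CEBP and DR1 motifs were all present at 24 of the 4905 loci of all 3 factors (0.489%). None of the PU.1, CEBP and DR1 motifs was found at 77.5% of PPARg only loci, 58.4% of PU.1 + PPARg, 48.3% of PU.1 only, 48.1% of CEBPa + PPARg, 42.1% of all 3 factors, 37.6% of CEBPa only and 35.8% of PU.1 + CEBPa loci. These exact letters miss weaker sites, so the shares say only how often the letters occur.

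**Figure D3:**
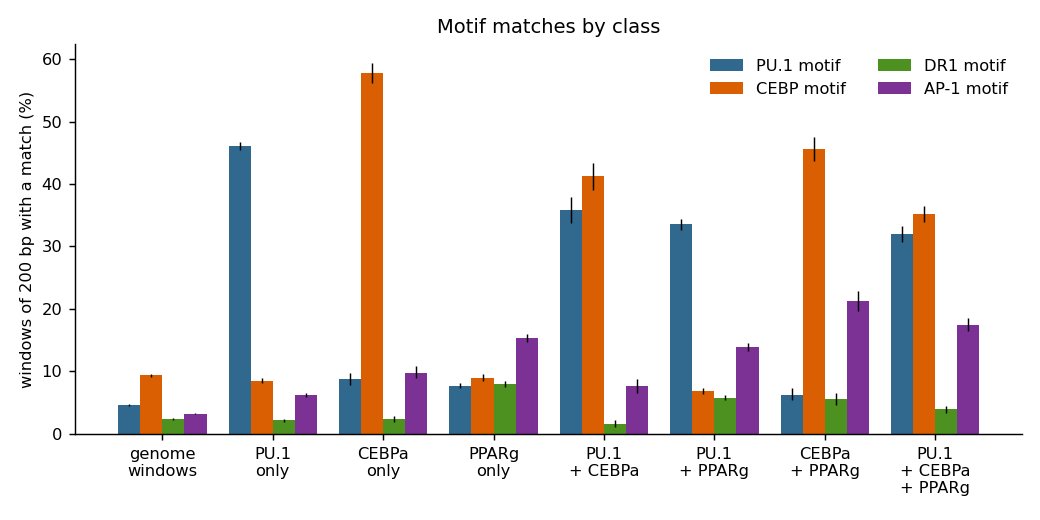
Share of 200 bp windows (%) with a PU.1, CEBP, DR1 or AP-1 motif at genome windows and at the 7 classes of loci; error bars are 95% Wilson intervals. The PU.1 and CEBP motifs are frequent only where that factor has a peak, and the AP-1 motif is most frequent at CEBPa + PPARg loci (21.3%).

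PU.1 and CEBPa peak centres lay near the factor's own motif, and the distance of PPARg centres to a DR1 was not measured. At PU.1 + PPARg loci with exactly 1 PU.1 motif (3432 loci), the PU.1 centre lay a median of 10 bp from it and the PPARg centre 47 bp. PU.1 was the nearer of these centres at 77.8% of the loci. At loci of all 3 factors with 1 PU.1 motif (1523 loci), the median distances were 11 bp for PU.1, 52 bp for CEBPa and 51 bp for PPARg. At loci of all 3 factors with 1 CEBP motif (1639 loci), they were 13.5 bp for CEBPa, 49.5 bp for PPARg and 57.5 bp for PU.1. The distances of 7 bp for PU.1 and 9.5 bp for CEBPa at loci with no partner were only a little shorter.

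AP-1 overlap rose with the number of factors. At least 1 of ATF3, Jun and JunD had a peak at 92.7% of loci of all 3 factors (4546 of 4905, interval 91.9 to 93.4). The share was 81.7% at CEBPa + PPARg, 68.2% at PU.1 + CEBPa and 61.1% at PU.1 + PPARg loci. Among loci of 1 factor it was 46.4% for CEBPa only (interval 44.7 to 48.0), 31.1% for PPARg only (30.3 to 31.9) and 17.9% for PU.1 only (17.4 to 18.4). At equal list length the order of the first and second of these turned. The shares were 61.7% for PPARg only, 58.4% for CEBPa only and 39.0% for PU.1 only, and 98.3% for loci of all 3 factors. Single-factor classes at equal length also hold loci whose partner peak was cut from a shortened list. CEBPa only held 6886 loci there against 3463 in the whole lists, although the CEBPa list was not shortened. The cut kept every CEBPa peak but only the strongest PPARg and PU.1 peaks, down to 41 and 369 tags. In the PPARg list the share with any AP-1 peak was 55.4%, and 77.6% among its strongest 12892 peaks. The part of this in the turned order was not tested. The baseline was 0.591% of genome windows and 15.9% of 200 bp windows at gene starts. All 3 monomers had a peak at 60.8% of loci of all 3 factors, 42.4% of CEBPa + PPARg, 25.3% of PU.1 + PPARg, 25.2% of PU.1 + CEBPa, 11.1% of CEBPa only, 9.80% of PPARg only and 3.74% of PU.1 only loci.

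The 3 monomers were not spread alike over the classes. At CEBPa only loci, ATF3 was present at 40.7% against 20.3% for Jun and 20.3% for JunD. At PU.1 + CEBPa loci the shares were 58.7%, 36.7% and 43.9%, and at CEBPa + PPARg loci 75.5%, 51.3% and 60.8%. At PU.1 + PPARg loci JunD led with 49.5%, over ATF3 with 45.4% and Jun with 33.7%. At loci of all 3 factors ATF3 was present at 86.6%, JunD at 81.1% and Jun at 67.3%. At PPARg only loci the shares were 22.9% for ATF3, 21.1% for JunD and 15.4% for Jun, and at PU.1 only loci 11.9%, 10.7% and 7.75%. The ATF3 list (23160 peaks) is longer than the JunD (19653) and Jun (15548) lists. With each cut to 15548 peaks, ATF3 was still highest in the 4 classes with CEBPa. Its shares were 28.4% of CEBPa only loci (20.3% for Jun and 14.2% for JunD) and 43.1% of PU.1 + CEBPa (36.7% for Jun). They were 64.4% of CEBPa + PPARg (53.3% for JunD) and 77.8% of loci of all 3 factors (75.7% for JunD). At loci of all 3 factors the intervals of ATF3 (76.6 to 78.9) and JunD (74.5 to 76.9) overlapped. JunD still led at PU.1 + PPARg loci, with 41.1% against 33.7% for Jun and 31.3% for ATF3. At the other classes ATF3 went from first to last, with 14.2% against 15.4% for Jun and 15.6% for JunD at PPARg only loci, and 6.17% against 7.75% for Jun and 7.10% for JunD at PU.1 only loci.

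**Figure D4:**
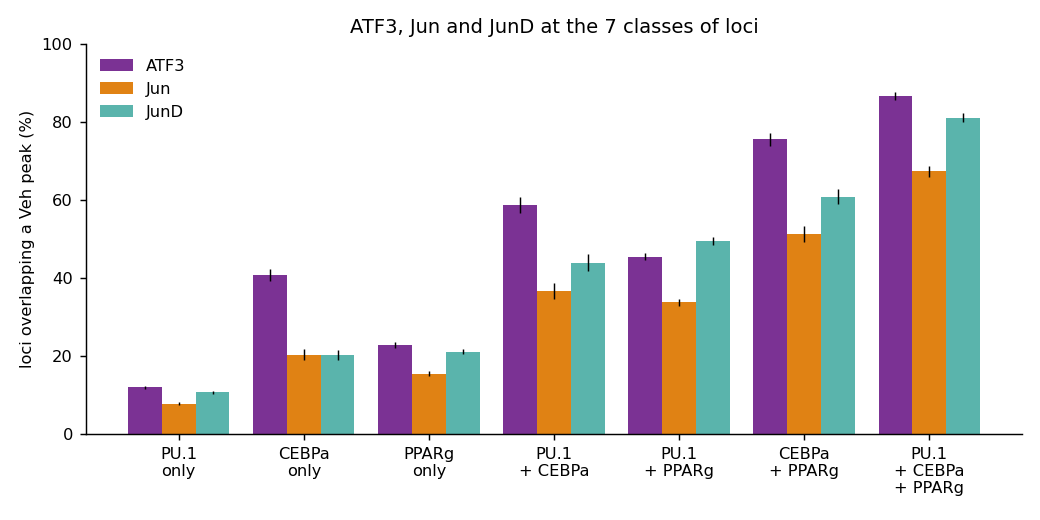
Share of loci (%) in each class that overlap an ATF3, a Jun or a JunD peak of Veh TGEMs; error bars are 95% Wilson intervals. All 3 monomers are most frequent at loci of all 3 factors (86.6%, 67.3% and 81.1%) and least frequent at PU.1 only loci (11.9%, 7.75% and 10.7%).

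Seen from the AP-1 lists, most peaks had a partner. At least 1 of PU.1, CEBPa and PPARg was found at all but 16.5% of ATF3 peaks, 13.7% of Jun peaks and 10.4% of JunD peaks. In the whole lists PPARg was the most frequent partner of each monomer, at 69.2% of JunD, 65.8% of Jun and 60.4% of ATF3 peaks. PU.1 was found at 64.9%, 61.2% and 56.7%, and CEBPa at 35.8%, 38.5% and 37.4%. This order rests on lists of unequal length. With 12892 peaks each, 8670 CEBPa, 8562 PPARg and 6160 PU.1 peaks overlapped an ATF3 peak. For Jun the numbers were 6732 for PPARg, 5989 for CEBPa and 4619 for PU.1, and for JunD 8718, 7027 and 6260. These numbers set the whole CEBPa list against only the strongest PPARg and PU.1 peaks. AP-1 peaks were strongest at loci of all 3 factors, with a median count of 93 for ATF3 (41 where none of the 3 factors had a peak), 35 for Jun (18) and 70 for JunD (39).

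Merged loci of several factors were wider, with a median of 299 bp for all 3 factors and 210 bp for PU.1 only, and their peaks had higher counts. Single peaks were therefore compared within bins of 10% of 1 list. Among the strongest 10% of PU.1 peaks, an AP-1 peak was present at 47.2% of those without a partner, 79.0% of those with PPARg, 83.2% of those with CEBPa and 97.6% of those with both. In the weakest 10%, the shares were 10.5%, 49.2%, 57.5% and 87.1%. Among the strongest 10% of CEBPa peaks they were 83.7% alone, 94.3% with PU.1, 94.2% with PPARg and 98.4% with both, and in the weakest 31.1%, 50.0%, 69.2% and 87.9%. Among the strongest 10% of PPARg peaks they were 63.7% alone, 82.6% with PU.1, 93.4% with CEBPa and 98.1% with both, and in the weakest 8.00%, 24.0%, 47.5% and 58.8%. Peaks with both partners had the highest share and peaks alone the lowest in each of the 10 bins of the 3 lists.

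**Figure D5:**
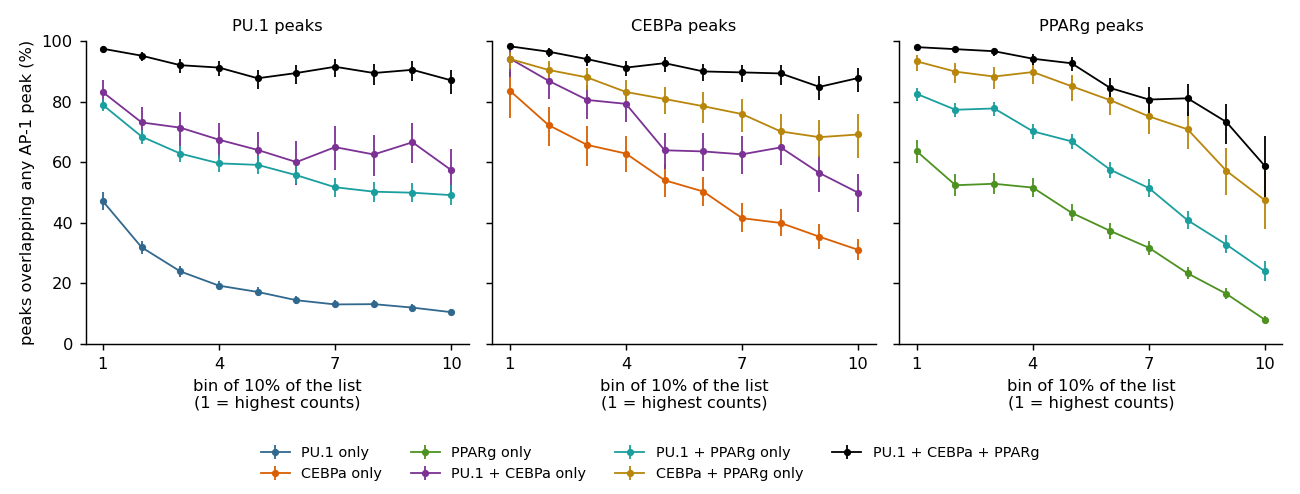
Share of PU.1, CEBPa and PPARg peaks (%) that overlap any AP-1 peak, by class and by bin of 10% of the list from the highest counts (1) to the lowest (10); error bars are 95% Wilson intervals. Peaks with both partners lie above the other classes in each bin, from 97.6% in the strongest to 87.1% in the weakest bin of PU.1 peaks.

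The class differences held away from promoters. At loci 3 kb or more from a gene start, any AP-1 peak was present at 93.8% of those with all 3 factors, 82.7% of CEBPa + PPARg, 68.9% of PU.1 + CEBPa, 65.2% of PU.1 + PPARg, 47.8% of CEBPa only, 31.8% of PPARg only and 17.9% of PU.1 only. Within 1 kb of a gene start, the shares were 86.8% for all 3 factors and 21.1% for PU.1 only. ATF3 was less frequent at PU.1 + PPARg promoters (29.4%) than at PU.1 + PPARg loci far from them (51.9%), and JunD was at 39.6% and 53.7%.

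The AP-1 motif was present at a minority of these loci. It was found at 21.3% of CEBPa + PPARg loci, 17.5% of loci of all 3 factors, 15.4% of PPARg only, 13.8% of PU.1 + PPARg, 9.82% of CEBPa only, 7.63% of PU.1 + CEBPa and 6.27% of PU.1 only loci, against 3.26% of genome windows. PPARg only loci with an AP-1 peak held it at 31.1%, the highest share of any class, and those without at 8.23%. At loci of all 3 factors the shares were 18.7% with an AP-1 peak and 1.67% without, the latter over 359 loci. The loci of all 3 factors thus had the highest share with AP-1 peaks but not with this motif. The window was again centred on the merged locus. Its median width was 299 bp for all 3 factors, 271 bp for CEBPa + PPARg and 243 bp for PPARg only. Only TGACTCA was searched, while the paper also counted a longer variant of the AP-1 motif. The part of window and letters in this contrast was not tested.

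The strongest peaks of each list lay at different genes. The strongest PU.1 peak (1563 tags) was on an unplaced scaffold, where PPARg also had a peak (219 tags) and no gene was assigned. The next was chr15:38644458-38644700 (1460 tags), 17354 bp upstream of Atp6v1c1 (ENSMUSG00000022295.8), a subunit of the proton pump that acidifies lysosomes. CEBPa (219 tags) and JunD (101 tags) also had peaks there. It was followed by peaks 54102 bp upstream of Slc22a27, an organic anion transporter gene (1433 tags), 6880 bp upstream of Ptpn1, a tyrosine phosphatase gene (1422 tags), and in an intron of Soga1 (1408 tags). The Ptpn1 peak (chr2:167925070-167925284) overlapped peaks of CEBPa (216 tags), PPARg (115 tags), ATF3 (190 tags), Jun (39 tags) and JunD (109 tags).

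The strongest CEBPa peak (463 tags, chr3:158062211-158062436) lay in an exon of Lrrc40 and had no PU.1 peak. Other leading peaks lay 66971 bp downstream of the start of Rhob, a small GTPase gene (404 tags), 15918 bp downstream of the start of Umps, a pyrimidine synthesis enzyme (376 tags), and 429666 bp upstream of Mef2c, a transcription factor gene (372 tags). Each of these 4 overlapped peaks of PPARg, ATF3, Jun and JunD, and those near Rhob, Umps and Mef2c also a PU.1 peak. At the Mef2c peak (chr13:83074260-83074476) PU.1 had 976 tags and PPARg 48.

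The strongest PPARg peak (565 tags, chr3:122340540-122340750) lay in an intron of Bcar3, a signalling adaptor gene, and carried PU.1 (180 tags), CEBPa (183 tags), ATF3 (281 tags), Jun (90 tags) and JunD (149 tags). The next (563 tags, chr19:34515803-34516008) lay in an intron of Lipa, which encodes the enzyme that hydrolyses cholesteryl esters and triglycerides in lysosomes, and had a PU.1 peak of 1072 tags but no CEBPa peak. The others lay 24 bp upstream of Crtc2, a coactivator of CREB (554 tags), 6222 bp upstream of Atp6v0a1, another proton pump subunit (552 tags), and at the start of Mlst8, a subunit of the mTOR complexes (551 tags). The Mlst8 peak overlapped none of the other 5 lists.

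Among the strongest loci of each class, PU.1 only was led by a locus in an exon of Wdr12 (nearest gene start Carf, 1309 tags), then those near Cd302 (1286 tags) and Nlrp1a (1283 tags). CEBPa only was led by the Slc18a1 locus (337 tags), then one on an unplaced scaffold (317 tags) and one 427778 bp upstream of Klf4, a monocyte transcription factor gene (308 tags). PPARg only was led by Mlst8, then by peaks of 549 and 548 tags inside Gm26917. The latter overlapped no other of the 5 lists and lay 107188 and 106442 bp from the start of Esp38, the nearest protein-coding gene. PU.1 + CEBPa was led by Tada1 (1030 and 312 tags), Atp6v1c1, and Lyz1, a lysozyme gene (783 and 319 tags). PU.1 + PPARg was led by Lipa, by a locus 3248 bp upstream of Bcar3 (1096 and 417 tags) and by one in an intron of Axl, a receptor for the uptake of dying cells (1366 and 275 tags). CEBPa + PPARg was led by Trak1, a mitochondrial transport adaptor gene (268 and 389 tags), Sdc1 (278 and 278 tags) and Sgms2, a sphingomyelin synthase gene (253 and 362 tags). Loci of all 3 factors were led by those nearest to Car4 (1071, 270 and 289 tags for PU.1, CEBPa and PPARg), Zfp503 (1036, 242 and 283 tags) and Degs2 (871, 279 and 456 tags). All of these last 3 also overlapped ATF3, Jun and JunD, with ATF3 at 355 tags by the Car4 locus. At equal list length, 12 of the 21 strongest loci were the same. All 3 were shared for the class of all 3 factors and for PU.1 + PPARg, 2 of 3 for PPARg only and PU.1 + CEBPa, 1 of 3 for PU.1 only and CEBPa only, and 0 of 3 for CEBPa + PPARg, whose leading loci were then those nearest to Anxa2, Gm13547 and Gpcpd1. In the whole PU.1 list these loci also had PU.1 peaks, of 153, 194 and 128 tags, which the cut removed.

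Genes of macrophage identity and lipid handling were read against all protein-coding genes. A gene was counted where a peak lay in it or within 5 kb, which held for 53.7% of 21924 protein-coding genes with PU.1, 51.7% with PPARg, 25.6% with CEBPa and 21.5% with each of the 3. Of 62 genes in 4 lists of macrophage and lipid genes, 57 had a PU.1 peak (91.9%), 58 a PPARg peak (93.5%), 44 a CEBPa peak (71.0%) and 42 all 3 (67.7%). These lists were chosen with earlier results of these data known, so the comparison is a description and no independent support. The median gene length was 20.0 kb for these 62 and 17.4 kb for all genes. A peak near a gene does not show that the gene is regulated by it.

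Of 18 lineage transcription factor genes, 17 had a PU.1 peak, 18 a PPARg peak and 15 a CEBPa peak. Spi1, which encodes PU.1 itself, had 11 PU.1, 5 CEBPa and 15 PPARg peaks and 4 loci of all 3 factors. The strongest of these lay 677 bp from the Spi1 start, with 775 tags for PU.1, 286 for CEBPa and 151 for PPARg. Cebpa had 1 locus of all 3 factors 210 bp from its start, with 125 PU.1, 125 CEBPa and 70 PPARg tags. Pparg had 11 PU.1, 7 CEBPa and 6 PPARg peaks, and its 1 locus of all 3 factors had 360, 69 and 43 tags. Runx1, a haematopoietic factor gene, had 7 loci of all 3 factors, the most among the 18 genes. Runx1 is a long gene (chr16:92601466-92826149) with 38 loci in its zone, against 19 for Spi1, and these counts were not set against gene length. Cebpb, by contrast, had no PU.1 peak but PPARg peaks of up to 308 tags, and Cebpd had a PU.1 peak of 1191 tags and no CEBPa peak.

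Of 16 lipid genes, 14 had a PPARg peak, 14 a PU.1 peak and 8 a CEBPa peak, and all 8 of the latter had all 3. Cd36, the scavenger receptor gene, had 4 loci of all 3 factors, the strongest with 1157 PU.1, 181 CEBPa and 188 PPARg tags. High PPARg peaks without CEBPa lay at Angptl4, an inhibitor of lipoprotein lipase (449 tags), Slc25a20, the mitochondrial carnitine carrier (387 tags), and Acadl, an acyl-CoA dehydrogenase (258 tags). PPARg peaks lay also at Cpt1a, the carnitine palmitoyltransferase of mitochondria (482 tags), and Plin2, the lipid droplet coat protein (457 tags), where CEBPa had peaks of 256 and 51 tags. Pdk4 and Cidec had no peak of any of the 3 factors.

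Of 16 myeloid receptor and signalling genes, all 16 had PU.1 and PPARg peaks and 15 had a CEBPa peak. Tlr4, the endotoxin receptor, had 3 loci of all 3 factors, and the strongest lay 25 bp from its start with 1230 PU.1, 87 CEBPa and 108 PPARg tags. Cd68 (992, 117 and 169 tags, 29 bp from its start) and Mpeg1 (997, 91 and 34 tags, 310 bp from its start) had such a locus at the promoter as well. Btk, a kinase of antigen receptor signalling, had 5 PU.1 and 2 PPARg peaks and no CEBPa peak. Of 12 granulocyte and monocyte genes linked to CEBP factors, 10 had a PU.1 peak, 10 a PPARg peak and 6 a CEBPa peak. Il1b, the interleukin-1 gene, had 3 loci in this zone and each carried all 3 factors and AP-1. Lyz2 had 3 such loci of 4, while the granule genes Mpo and Elane had PU.1 and PPARg peaks but none of CEBPa.

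Marker genes of macrophages and of other cell types were counted in the same way. Each of 6 macrophage markers had peaks of all 3 factors, against 3 of 6 neutrophil markers, 2 of 5 B cell markers, 2 of 6 adipocyte and liver markers, and 0 of 6 T cell and 0 of 6 mast cell and eosinophil markers. Over all protein-coding genes the share was 21.5%, which the neutrophil, B cell and adipocyte and liver markers also exceeded. Only 5 of 6 B cell markers were matched to a protein-coding gene. No factor had a peak at Cd3e, Cd8a, Bcl11b, Pax5, Ly6g, Retnlg, Prg2, Epx and Alb. Peaks at marker genes are no measure of expression, and the share of other cells in the cultures was not tested.

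After 1 h of KLA, 73.6% of PU.1 Veh peaks overlapped a PU.1 peak and 69.6% of CEBPa Veh peaks a CEBPa peak. The PU.1 KLA list held 40645 peaks with a median of 62 tags, against 259 tags in the Veh list. The CEBPa KLA list held 14802 peaks with a median of 69 tags, against 76. The part of these count scales in the shares was not tested, so a Veh peak without a KLA peak is not shown to be lost. For PU.1 the share was 63.7% at PU.1 only loci and 90.6% at loci of all 3 factors, and in the strongest 10% it was between 99.3% and 99.8% in each class. In the weakest 10% it was 32.9% at PU.1 only loci, 44.3% with CEBPa, 52.5% with PPARg and highest with both, at 155 of 272 peaks (interval 51.0% to 62.7%). For CEBPa the shares were 58.7% at CEBPa only loci, 62.2% with PU.1, 77.2% with PPARg and 76.7% with both. In the strongest 10% of CEBPa peaks they were between 98.9% and 99.7%. In the weakest 10% they were 27.2% alone (interval 23.9 to 30.8), 18.4% with PU.1, 34.6% with PPARg and 25.4% with both (interval 20.4 to 31.1), so at low counts CEBPa peaks with both partners were not above those alone.

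In PPARg knockout TGEMs, wild-type AP-1 peaks at PPARg loci were retained more often than those without any of the factors. For Jun, 37.9% of peaks at loci of all 3 factors, 19.5% at PPARg only and 6.70% at none of the 3 overlapped a knockout Jun peak, with a knockout list of 4290 peaks. For ATF3 the shares were 91.7%, 78.6% and 63.3%, and for JunD 69.1%, 54.0% and 33.6%. At PU.1 only, CEBPa only and PU.1 + CEBPa loci, which had no PPARg peak, 9.62%, 8.78% and 12.6% of Jun peaks were retained. For ATF3 these shares were 65.8%, 74.7% and 77.1%, and for JunD 37.2%, 32.9% and 40.3%. ATF3 peaks were thus retained nearly as often at PU.1 + CEBPa as at PPARg only loci. Wild-type AP-1 counts were higher at loci of all 3 factors as given above, and the part of peak strength in these shares was not tested. The paper reported that Jun binding fell markedly in the knockout, while that of ATF3 and JunD changed little. It also reported higher PPARg half-site scores at PPARg-bound loci that lost Jun than at Jun loci without PPARg.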

How the data were processed

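ChIP-seq peak lists of PU.1, CEBPa, PPARg, ATF3, Jun and JunD from Veh TGEMs were compared, with PU.1 and CEBPa lists after KLA and AP-1 lists of PPARg knockout cells. The authors aligned reads to mm10 with Bowtie2, called peaks with HOMER against the input of the same treatment, scored reproducibility between replicates by IDR and kept those under 0.05. The deposited count is the number of tags in a peak, and how replicate counts were combined is not given in the sources used here. The deposited IDR score ran from 540 to 1000 and served only as a description. Library depth is unknown, since the lists hold only peaks.

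Peaks sharing 1 bp were merged with Python 3.11.15, pandas 2.3.3 and numpy 2.4.6. Spearman's rho came from scipy 1.17.1, motifs from GRCm38 RefSeq sequence read with pysam 0.24.0 and samtools 1.23.1, and gene starts from GENCODE M21. The overlap and motif steps were tested on simulated data. Named genes are those nearest to the 5 strongest peaks of each list and the 3 strongest loci of each class, with genes of the lists; 1 of them is not reported here. The members and lists were chosen with earlier results of these data known. The further 3 sequences with full motif sets were chosen after values were seen. Each factor had 1 list, so no test was made. Alternatives were list length, overlap rule, promoter distance, motif window, AP-1 list length and gene flank.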

Additional observations from a re-analysis of the deposited data

How the results depend on the processing

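For the main results, 50 alternative values moved by more than the counting interval, and for the further shares 59 moved and 37 did not. Some could not move, since the CEBPa list at equal length and the Jun list among AP-1 lists of equal length are the whole lists. Classes are given in the order PU.1 only, CEBPa only, PPARg only, PU.1 + CEBPa, PU.1 + PPARg, CEBPa + PPARg and all 3 factors. Their shares of loci were 25.8%, 24.2%, 20.8%, 4.74%, 8.19%, 9.83% and 6.49% at equal list length, and 42.2%, 6.58%, 23.0%, 2.56%, 14.7%, 5.38% and 5.64% with the strongest 50% of each list. With peak centres within 100 bp they were 40.7%, 6.59%, 23.2%, 3.21%, 15.6%, 4.01% and 6.72%, and with a reciprocal overlap of 50% they were 40.5%, 6.46%, 23.0%, 3.23%, 15.9%, 4.03% and 6.93%. Equal list length lowered rho to 0.066 for PU.1 and PPARg and 0.124 for CEBPa and PPARg.

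The promoter shares of the PU.1, CEBPa and PPARg lists were 10.7%, 7.42% and 18.3% within 500 bp and 21.6%, 17.7% and 30.4% within 3 kb, and that of PU.1 was 11.2% at equal length. Any AP-1 peak was present at 12.5% of PU.1 only, 36.1% of CEBPa only, 23.7% of PPARg only and 87.7% of loci of all 3 factors with AP-1 lists of equal length, and at 39.0%, 58.4%, 61.7% and 98.3% with the 3 factors' lists of equal length. At loci of all 3 factors it was 91.6% by centres within 100 bp and 93.8% at 3 kb or more from a gene start. In the central 100 bp the PU.1, CEBP and DR1 motifs were found at 37.9%, 41.2% and 4.25% of their own lists, and at equal length the PU.1 motif was at 49.7% and the DR1 at 9.56%. With a flank of 20 kb, 59, 55 and 60 of the 62 genes had a PU.1, CEBPa and PPARg peak, against 57, 44 and 58 with 5 kb. The cause of these shifts was not tested.

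No paired analysis was possible because each factor and treatment has 1 list that joins its replicates, which also leaves no replicate to leave out. Intervals cover counting error only, and a locus without a listed peak is not shown to be unbound.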
